A study of Homo sapiens with 24 samples.

Results

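OVCAR8 cells, an established line from a human high grade serous carcinoma of the ovary, were compared in boiled senescent conditioned medium and in the fraction of the same kind of medium above 3 kDa. The comparison rests on 6 of the 24 polyA RNA libraries of the series, the 3 labelled as boiled senescent medium and the 3 labelled as the fraction above 3 kDa, here called the large fraction. All 24 libraries came from cells grown in ultra-low attachment plates, which hold them in suspension. The medium under test was diluted 1 to 1 with RPMI holding 5% serum. Senescent medium had been collected from cells driven into senescence with the platinum drug cisplatin. The other direct groups, of 3 libraries each, received fresh medium, medium from vehicle-treated proliferating cells (proliferative medium), intact senescent medium or its fraction below 3 kDa (small fraction). They serve here only to show where a gene stood outside the pair compared. No source used here states the time of boiling, the time of exposure or which cells conditioned the medium, and a pre-treated version of the proliferative and senescent groups was not used.

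The 2 preparations differ in more than one way. Going by the labels, boiled medium should keep molecules of any size that withstand heat, including those below 3 kDa. The large fraction should hold unheated large components and lack most of the small ones. A difference between them can therefore come from heat, from small molecules or from another step of preparation, and within this pair these cannot be told apart. The design text of the series asks about the non-protein part of the senescence-associated secretory phenotype, the mixture of cytokines, proteases, lipids and metabolites that senescent cells release.

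Genes of several known regulatory circuits are counted below, and the activity of the circuits themselves was not measured. Hypoxia-inducible factors are stabilised when prolyl hydroxylases fail, and they raise glucose uptake, glycolysis and lactate export by binding a short core sequence, ACGTG. Sterol regulatory element-binding proteins are released from the endoplasmic reticulum when cell sterol is low, and they raise the enzymes of sterol and fatty acid synthesis. Interferons act through the factor ISGF3, which binds a repeated GAAA element in the promoters of antiviral genes. NF-kB drives inflammatory cytokines and its own inhibitors.

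Promoter sequences of 3 interferon-stimulated genes and 3 hypoxia targets that differed between the media are shown first, because the contrast divides these programs in opposite directions. Each runs from 250 bases before to 50 bases after the gene start in RefSeq's annotation of GRCh38.p14, 5′ to 3′ on the strand of the gene. Capitals mark matches on either strand to GAAA, any 2 bases, GAAA in the first 3 and to ACGTG in the last 3. IFIT3 lies at chr10:89327747-89328046 on the plus strand, HERC5 at chr4:88456869-88457168 on the plus strand, IFI44L at chr1:78620198-78620497 on the plus strand, LOX at chr5:122078210-122078509 on the minus strand, ANKRD37 at chr4:185396591-185396890 on the plus strand and ANGPTL4 at chr19:8363905-8364204 on the plus strand.
IFIT3: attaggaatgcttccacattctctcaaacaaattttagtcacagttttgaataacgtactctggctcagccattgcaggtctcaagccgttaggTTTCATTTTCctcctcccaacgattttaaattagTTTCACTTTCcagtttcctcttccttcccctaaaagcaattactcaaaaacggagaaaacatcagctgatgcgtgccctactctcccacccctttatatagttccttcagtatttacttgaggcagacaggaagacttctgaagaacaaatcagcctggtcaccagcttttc
HERC5: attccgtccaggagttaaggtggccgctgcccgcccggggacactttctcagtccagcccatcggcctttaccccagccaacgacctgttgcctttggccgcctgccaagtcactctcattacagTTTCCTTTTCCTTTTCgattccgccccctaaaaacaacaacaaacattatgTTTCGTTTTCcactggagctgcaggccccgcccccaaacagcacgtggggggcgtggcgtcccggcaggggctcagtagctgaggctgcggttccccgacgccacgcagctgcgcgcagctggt
IFI44L: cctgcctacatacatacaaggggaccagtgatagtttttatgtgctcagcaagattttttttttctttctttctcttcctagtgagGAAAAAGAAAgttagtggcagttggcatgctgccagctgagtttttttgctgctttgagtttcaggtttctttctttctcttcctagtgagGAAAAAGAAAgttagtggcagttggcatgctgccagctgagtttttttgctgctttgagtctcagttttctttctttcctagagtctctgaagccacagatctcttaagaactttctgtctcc
LOX: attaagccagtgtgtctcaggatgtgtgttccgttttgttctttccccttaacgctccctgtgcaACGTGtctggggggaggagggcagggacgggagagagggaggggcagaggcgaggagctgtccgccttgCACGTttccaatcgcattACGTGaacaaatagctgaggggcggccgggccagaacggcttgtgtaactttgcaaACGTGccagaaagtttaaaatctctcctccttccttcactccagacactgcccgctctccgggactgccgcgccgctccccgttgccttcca
ANKRD37: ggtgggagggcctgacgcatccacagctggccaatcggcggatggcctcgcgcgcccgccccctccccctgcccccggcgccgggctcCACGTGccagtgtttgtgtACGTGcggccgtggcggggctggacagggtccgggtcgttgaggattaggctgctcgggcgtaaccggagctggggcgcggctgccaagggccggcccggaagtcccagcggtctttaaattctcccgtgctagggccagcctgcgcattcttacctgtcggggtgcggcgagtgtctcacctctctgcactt
ANGPTL4: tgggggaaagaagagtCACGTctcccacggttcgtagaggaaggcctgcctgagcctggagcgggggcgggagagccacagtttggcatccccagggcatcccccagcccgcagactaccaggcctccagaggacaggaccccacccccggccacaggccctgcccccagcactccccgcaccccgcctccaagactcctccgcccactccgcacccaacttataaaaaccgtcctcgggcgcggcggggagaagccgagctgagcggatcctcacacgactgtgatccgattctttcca

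The element (GAAA, any 2 bases, GAAA) was found in 14 of the 19 interferon-list promoters present in the reference table (73.7%) and in 3.57% of all 35116 promoters. ACGTG was found in 9 of 21 hypoxia-list promoters (42.9%) and in 21.4% of all promoters. The promoters printed above are all among those with a match. Those of STC2, PFKFB4 and PDK1, which were also lower in boiled medium, held no ACGTG. Whether a match goes with a change was not tested. A longer sterol element, TCACNCCAC, was found in 1 of 17 sterol-list promoters (5.88%), that of SREBF2, and in 1.13% of all promoters. The palindrome CACGTG counts as 2 overlapping matches to ACGTG, and 2 of the matches in HERC5 overlap. A match in 300 bases is a description of letters, not of binding.

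Total counts in the 6 libraries ran from 16330543 to 21956598, within the range of 14718120 to 21956598 over all 24. The labels number the replicates but do not say that they came from separate cultures, so p values measure the spread between these libraries, which may be technical. Levels are FPKM, the authors' read counts scaled by gene length and library size, and are given as the mean ± SD with n = 3 unless each library is listed. Changes are log2 fold changes, boiled medium minus large fraction, followed by ± an approximate standard error (SE) derived from the test statistic. Adjusted p values are from edgeR's quasi-likelihood test with Benjamini-Hochberg adjustment over all genes tested, with a threshold of 0.05. "Higher" and "lower" calls refer to boiled medium relative to the large fraction and to genes past that threshold. Most genes named below were picked by their change or p value in these same 6 libraries. Statements that their libraries did not overlap therefore describe the values and add no support to the calls.

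The cells carried the markers of their label. PAX8, the Müllerian lineage factor, stood at 26.6 ± 1.03 FPKM in boiled medium and 32.4 ± 1.21 FPKM in the large fraction, and keratins 7, 8 and 18 were abundant. The summed level of the 14 carcinoma markers was 632 to 676 FPKM in boiled medium and 742 to 774 FPKM in the large fraction, while MUC16, KRT19, CDH1 and ESR1 were near 0. Of the 10 tested carcinoma markers, 4 were lower and 1, FOLR1, was higher, beside 7.09% and 4.46% over all genes. Summed immune markers reached only 3.89 to 4.57 FPKM in boiled medium and 2.79 to 3.10 FPKM in the large fraction, with CD3E and MS4A1 at 0 in all 6 libraries. Summed fibroblast markers were 218 to 222 FPKM and 174 to 185 FPKM, nearly all from COL1A1, while COL1A2, COL3A1 and DCN were near 0.

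Of 19210 genes tested, 856 were higher in boiled medium (4.46%) and 1362 were lower (7.09%). Most changes were small. The median absolute log2 fold change of the 2218 called genes (11.5% of those tested) was 0.32, and 71 higher and 59 lower genes passed a log2 fold change of 1. The median over all genes tested was 0.00745. With library totals in place of TMM factors the calls were 1109 higher and 1152 lower, so the split between directions depends on the scaling. Without the second large-fraction library the higher calls numbered 541. Protein-coding genes made up 749 of the higher and 1302 of the lower calls.

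**Figure D1:**
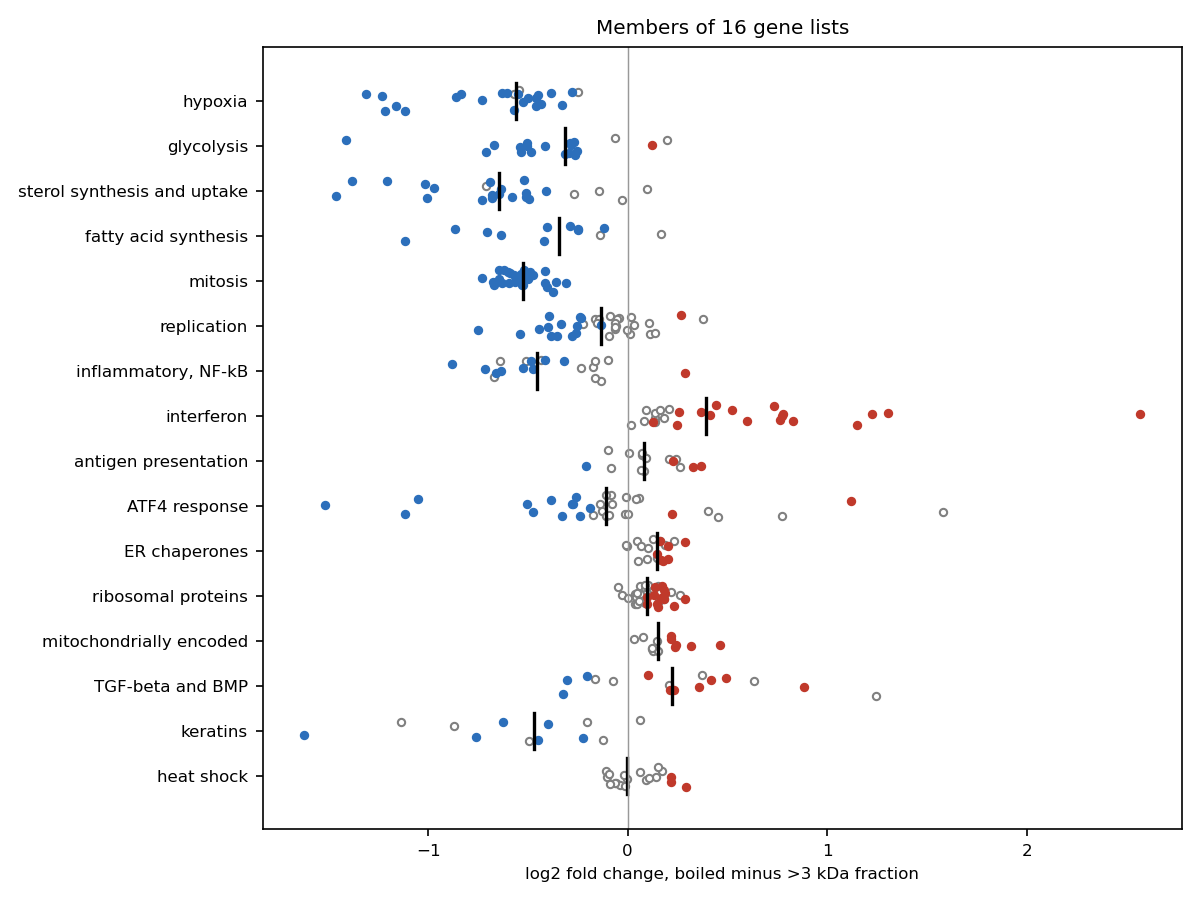
Members of 16 gene lists by their log2 fold change, boiled medium minus the fraction above 3 kDa (x axis). Filled points passed the adjusted p threshold (red higher, blue lower), open points did not, and the black bar is the median of the list. The medians of the mitosis, hypoxia, glycolysis and sterol lists lie left of 0, and the interferon members lie right of it.

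Targets of hypoxia-inducible factors were lower in boiled medium. In this list of 24 genes, 21 were lower and none was higher, against 7.09% lower among all genes, with a median log2 fold change of -0.56. The 3 that missed the threshold were CA12, EGLN3 and ADM. NDRG1, a gene long used as a readout of oxygen sensing, had 58.1, 59.2 and 60.1 FPKM in the 3 boiled libraries and 135, 138 and 139 FPKM in the 3 large-fraction libraries. Each library in boiled medium was below each of the others, and the spread within a medium was small beside the gap (log2 fold change -1.21 ± 0.04, adjusted p = 7.27e-28). PFKFB4, which makes and removes an activator of phosphofructokinase, had 8.40, 8.88 and 9.26 FPKM in boiled medium and 19.8, 19.7 and 19.8 FPKM in the large fraction (-1.16 ± 0.06). ANGPTL4, a secreted inhibitor of lipoprotein lipase, had 4.14, 3.67 and 3.84 FPKM and 9.20, 8.95 and 9.20 FPKM in the same order (-1.23 ± 0.10). None of these ranges overlapped.

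Smaller falls ran through the rest of the list. STC2, a secreted glycoprotein, changed by -1.12 ± 0.07, and PDK1, the kinase that holds pyruvate back from the mitochondrion, by -0.86 ± 0.07. LOX, whose promoter above holds 4 matches to ACGTG and which crosslinks collagen, stood at 7.87 ± 0.926 FPKM in boiled medium and 14.0 ± 0.231 FPKM in the large fraction. BNIP3, a receptor for the removal of mitochondria, stood at 38.7 ± 1.21 FPKM and 64.0 ± 0.959 FPKM. VEGFA, the main angiogenic factor of the list, was 8.98 ± 0.549 FPKM against 11.3 ± 0.770 FPKM, and the prolyl hydroxylase EGLN1, the oxygen sensor that hypoxia-inducible factors themselves raise, 30.5 ± 0.654 FPKM against 41.5 ± 0.743 FPKM. Outside the list, APLN, the apelin peptide, had 0.998, 1.0 and 1.14 FPKM in boiled medium and 2.29, 2.75 and 2.71 FPKM in the large fraction (-1.29 ± 0.19).

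Glycolysis moved in the same direction. Of its 19 genes, 16 were lower and 1, the lactate transporter SLC16A1, was higher, beside 7.09% and 4.46% over all genes. The median log2 fold change was -0.32. HK2, the inducible hexokinase that commits glucose to the pathway, had 5.52, 5.52 and 6.23 FPKM in boiled medium and 14.9, 15.4 and 15.7 FPKM in the large fraction (-1.41 ± 0.07, adjusted p = 4.56e-20). The 2 sets of libraries were far apart for HK2, whereas the abundant enzymes differed by less. ENO2 stood at 75.9 ± 1.82 FPKM against 121 ± 5.45 FPKM, the platelet phosphofructokinase PFKP at 93.2 ± 2.46 FPKM against 135 ± 3.47 FPKM, and LDHA, which makes lactate, at 243 ± 0.914 FPKM against 302 ± 5.94 FPKM. The glucose transporter SLC2A3 had 12.9, 12.9 and 12.8 FPKM in boiled medium and 23.5, 23.2 and 23.5 FPKM in the large fraction (-0.86 ± 0.04). Its libraries within each medium were nearly equal and the groups did not overlap.

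A pair of arrestin-family genes that glucose metabolites induce and that restrain glucose uptake went the other way. TXNIP had 141, 139 and 134 FPKM in boiled medium and 94.5, 96.3 and 93.1 FPKM in the large fraction (0.54 ± 0.04, adjusted p = 1.05e-14). ARRDC4 had 10.4, 10.6 and 9.89 FPKM and 6.08, 5.39 and 6.44 FPKM (0.78 ± 0.09, adjusted p = 1.50e-08). Boiled libraries were the higher ones in both, without overlap. DDIT4, an inhibitor of the growth kinase complex mTORC1 and a gene of both hypoxia and amino acid stress, had 8.88, 8.65 and 8.70 FPKM in boiled medium and 24.1, 23.9 and 26.8 FPKM in the large fraction. At -1.52 ± 0.10 it was the second largest fall among protein-coding genes with at least 1 FPKM in either group.

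**Figure D2:**
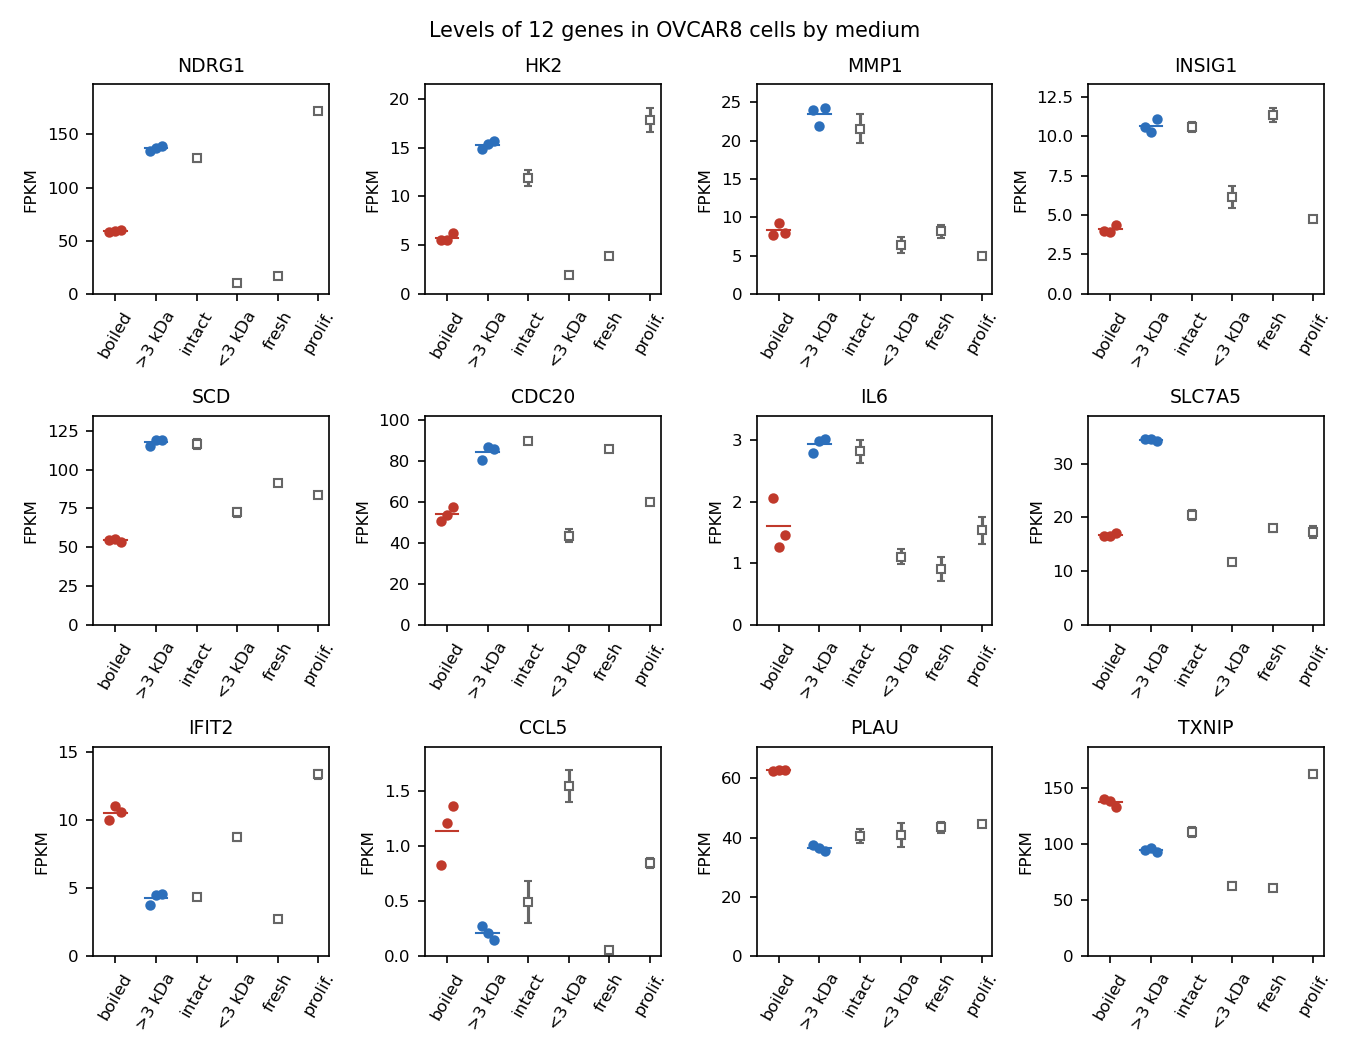
FPKM of 12 genes (y axis, from 0) in 6 media. Filled points are the single libraries in boiled medium (red) and in the fraction above 3 kDa (blue) with their mean as a line, and open squares are means ± SD of 3 libraries in intact senescent medium, the fraction below 3 kDa, fresh and proliferative medium. NDRG1 and HK2 lie between the 2 fractions in boiled medium, while SCD is lowest and PLAU is highest there.

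Sterol synthesis and uptake formed a further block of lower genes. Of 23 tested members, 18 were lower, against 7.09% of all genes, and none was higher. The median log2 fold change was -0.64. The 5 that missed the threshold were CYP51A1, HSD17B7, NSDHL, PMVK and TM7SF2. INSIG1, which retains the sterol sensor in the endoplasmic reticulum, had 3.99, 3.92 and 4.35 FPKM in boiled medium and 10.6, 10.3 and 11.1 FPKM in the large fraction (-1.38 ± 0.08, adjusted p = 6.66e-17). In this gene the highest boiled library was below the lowest large-fraction library.

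Along the pathway the size of the fall varied. Squalene synthase (FDFT1) and squalene epoxidase (SQLE), which begin the branch to sterol, changed by -1.01 ± 0.07 and -1.01 ± 0.06. DHCR7, the last enzyme of one route to cholesterol, changed by -0.97 ± 0.06. SREBF2, which encodes the sterol-responsive factor and whose promoter was the single one to match the sterol element, stood at 20.2 ± 0.815 FPKM and 30.1 ± 0.339 FPKM.

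Fatty acid synthesis followed. Of 12 tested genes, 10 were lower, against 7.09% of all genes, and none was higher, with a median of -0.35. SCD, the desaturase that makes monounsaturated fatty acids, had 54.4, 55.4 and 53.2 FPKM in boiled medium and 115, 119 and 119 FPKM in the large fraction (-1.12 ± 0.04, adjusted p = 1.69e-26). FASN, the fatty acid synthase, had 31.7, 36.2 and 36.4 FPKM and 54.6, 56.9 and 58.4 FPKM (-0.71 ± 0.04). FADS2 and FADS1, which desaturate polyunsaturated fatty acids, changed by -0.86 ± 0.05 and -0.63 ± 0.05. All boiled libraries were below all large-fraction libraries in these 4 genes. SREBF1 itself missed the threshold (adjusted p = 0.0609).

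Of 7 tested targets of the liver X receptors, which oxysterols activate, 2 were higher, none was lower and 5 did not pass, beside 4.46% higher and 7.09% lower over all genes. ABCA1, the pump that loads cholesterol on lipoproteins, had 5.79, 5.58 and 5.23 FPKM in boiled medium and 3.89, 3.71 and 3.77 FPKM in the large fraction (0.54 ± 0.07, adjusted p = 2.31e-08). APOE, a lipoprotein component, had 85.5, 86.3 and 96.1 FPKM and 61.5, 61.2 and 64.5 FPKM (0.52 ± 0.05, adjusted p = 5.66e-10). Neither gene's ranges overlapped between the media. The plot of lipid genes places synthesis, control and export side by side.

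**Figure D3:**
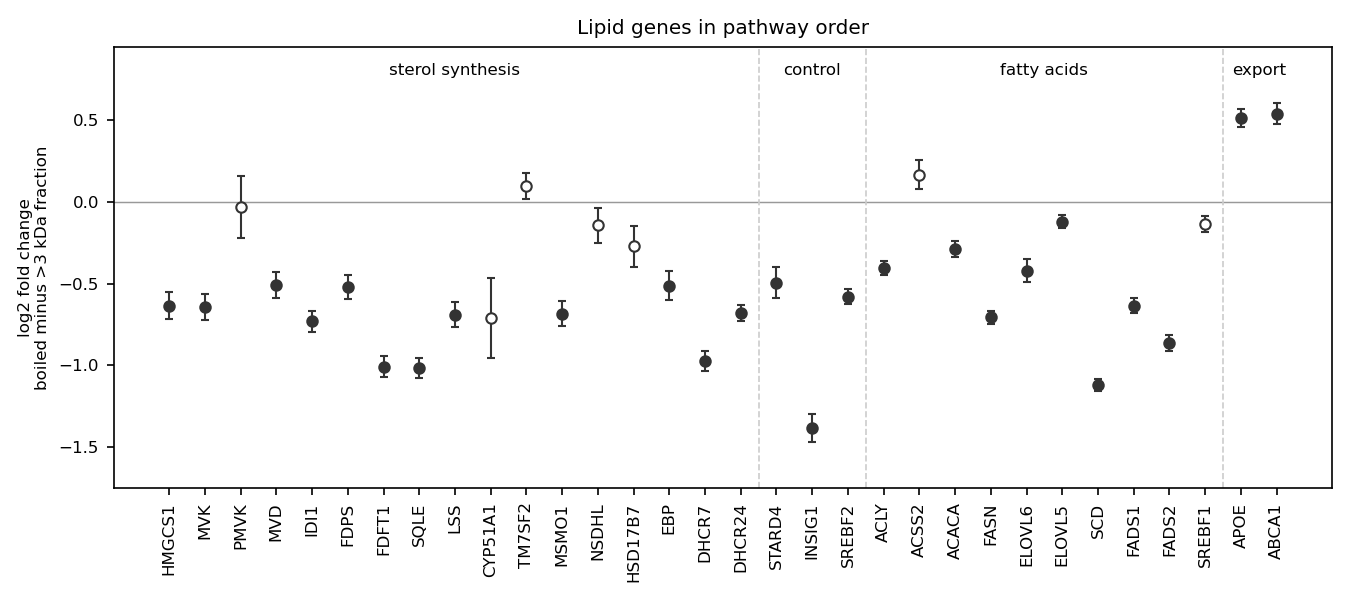
Log2 fold change, boiled medium minus the fraction above 3 kDa, with ± 1 approximate SE (y axis), for 32 lipid genes in pathway order (x axis). Filled points passed the adjusted p threshold and open points did not. INSIG1 lies lowest, and the export genes APOE and ABCA1 lie above 0.

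Every tested mitotic gene was lower in boiled medium. All 32 members passed, against 7.09% lower among all genes. The median log2 fold change was -0.53, with a range from -0.73 ± 0.08 for AURKB to -0.31 for PTTG1. CDC20, which activates the anaphase-promoting complex, had 50.6, 53.5 and 57.7 FPKM in boiled medium and 80.2, 87.0 and 86.0 FPKM in the large fraction (-0.65 ± 0.05, adjusted p = 8.90e-14). The kinase AURKB had 14.7, 13.0 and 14.3 FPKM and 22.4, 22.5 and 24.7 FPKM, and PLK1, a further mitotic kinase, 13.0, 13.8 and 13.8 FPKM and 21.2, 20.6 and 20.9 FPKM. MKI67, the proliferation marker, stood at 19.1 ± 1.44 FPKM against 28.9 ± 0.853 FPKM. Boiled libraries were the lower ones throughout, without overlap. In bulk RNA, fewer cells in mitosis and less of these RNAs per cell cannot be told apart.

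Replication genes were less uniform. Of 35, 14 were lower, 1 was higher and 20 did not pass, beside 7.09% lower and 4.46% higher over all genes. The median was -0.13. RRM2, the regulated subunit of ribonucleotide reductase, changed most, with 5.40, 5.32 and 5.71 FPKM in boiled medium and 9.52, 8.89 and 9.16 FPKM in the large fraction (-0.75 ± 0.07). CDT1, which licenses origins, changed by -0.54 ± 0.04. MCM6 was the 1 higher member, at 45.2 ± 0.768 FPKM against 37.6 ± 0.768 FPKM, while its partner in the replicative helicase MCM7 was lower, at 39.4 ± 0.281 FPKM against 46.3 ± 0.982 FPKM. PCNA, the sliding clamp, stood at 136 ± 4.30 FPKM and 134 ± 3.70 FPKM (adjusted p = 0.865). In the plot of cell cycle genes the mitotic members lie below the line of equal levels and many replication members lie on it. The 2 lists were not tested against each other.

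**Figure D4:**
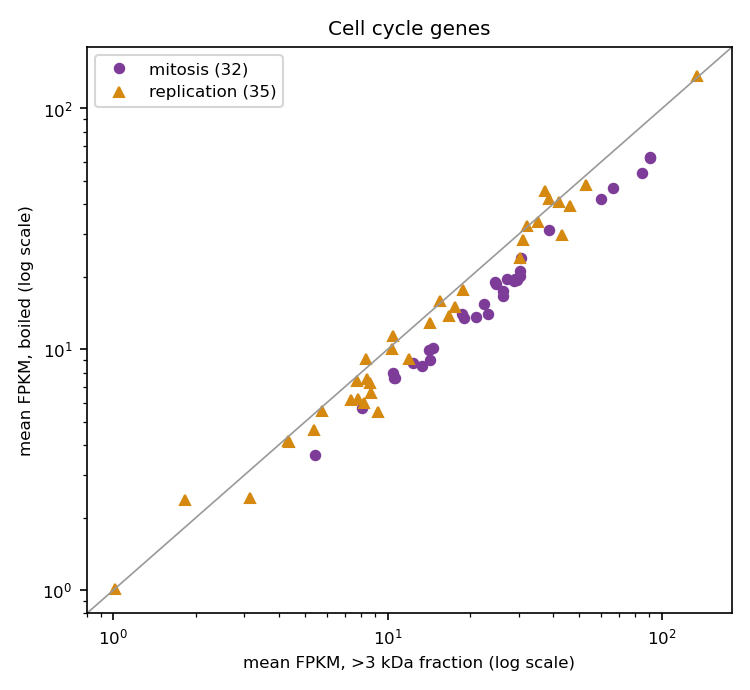
Mean FPKM in boiled medium (y axis, log scale) against mean FPKM in the fraction above 3 kDa (x axis, log scale) for 32 mitotic genes (circles) and 35 replication genes (triangles). The grey line marks equal levels. All circles lie below it.

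Interferon-stimulated genes were higher in boiled medium. Of 26 tested members of a list of 30, 17 were higher and none was lower, against 4.46% higher among all genes, with a median log2 fold change of 0.39. IFIT2, which binds and restrains foreign RNA, had 9.97, 11.0 and 10.6 FPKM in boiled medium and 3.72, 4.46 and 4.57 FPKM in the large fraction (1.31 ± 0.08, adjusted p = 5.44e-16). OASL, a member of the oligoadenylate synthetase family that aids RNA sensing, had 8.45, 7.15 and 8.28 FPKM and 3.34, 3.45 and 3.41 FPKM (1.23 ± 0.10). HERC5, the ligase that attaches ISG15 to proteins, had 11.5, 10.5 and 11.4 FPKM and 6.93, 5.78 and 6.03 FPKM (0.83 ± 0.07). Boiled libraries were the higher ones in all 3, without overlap.

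Further members rose by similar amounts. IFIT3 stood at 17.0 ± 1.49 FPKM in boiled medium and 9.92 ± 0.947 FPKM in the large fraction, and ISG15, the ubiquitin-like modifier, at 79.0 ± 1.62 FPKM and 46.5 ± 5.77 FPKM. IFI44L, whose promoter above carries a repeated element, had 1.94, 2.13 and 1.91 FPKM and 0.930, 0.907 and 0.849 FPKM (1.15 ± 0.11, adjusted p = 1.01e-10). OAS2 had the largest fold in the list, 2.57 ± 0.47, at levels of only 0.182, 0.322 and 0.168 FPKM against 0.0331, 0.0331 and 0.0431 FPKM. The regulatory factors IRF9, IRF7 and IRF1 missed the threshold. CCL5, a chemokine that interferon and NF-kB both induce, was the largest rise among protein-coding genes with at least 1 FPKM in either group, with 0.831, 1.21 and 1.36 FPKM and 0.274, 0.206 and 0.143 FPKM (2.42 ± 0.45, adjusted p = 9.59e-05).

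Antigen presentation moved little. Of 15 genes, 3 were higher and 1 was lower, beside 4.46% and 7.09% over all genes, with a median of 0.083. HLA-B was 319 ± 8.70 FPKM in boiled medium and 253 ± 5.13 FPKM in the large fraction (0.33 ± 0.04), and the immunoproteasome subunit PSMB8 was 29.4 ± 0.550 FPKM and 25.1 ± 0.534 FPKM. TAPBP, the chaperone that loads peptide, was the lower member, at 56.0 ± 2.11 FPKM and 64.8 ± 1.28 FPKM. The HLA genes are near-identical copies of each other, and no source used here says how shared reads were counted.

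Inflammatory genes ran against the interferon group. Of 20 tested cytokines and NF-kB targets, 9 were lower and 1, CSF1, was higher, beside 7.09% and 4.46% over all genes. The median log2 fold change was -0.46. NFKBIA, the inhibitor that NF-kB itself induces, had 30.6, 31.3 and 29.2 FPKM in boiled medium and 41.7, 41.6 and 43.6 FPKM in the large fraction (-0.48 ± 0.05, adjusted p = 6.45e-10). NFKB2 had 13.1, 13.8 and 13.2 FPKM and 20.5, 20.3 and 22.3 FPKM (-0.66 ± 0.06), and TNFAIP3, which removes ubiquitin signals upstream of NF-kB, 1.64, 1.79 and 2.15 FPKM and 3.01, 2.95 and 3.24 FPKM (-0.72 ± 0.12). In each of them the boiled libraries were the lower ones.

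IL6, the cytokine most often named for the senescent secretome, had 2.07, 1.27 and 1.46 FPKM in boiled medium and 2.80, 2.99 and 3.03 FPKM in the large fraction (-0.88 ± 0.21, adjusted p = 0.0031). Its boiled libraries scattered more than the others but stayed below them. The adhesion receptor ICAM1 stood at 21.5 ± 0.683 FPKM and 29.8 ± 0.806 FPKM. CXCL8 and CXCL1 had 0.900 ± 0.158 and 1.59 ± 0.161 FPKM in boiled medium, 1.29 ± 0.239 and 2.49 ± 0.121 FPKM in the large fraction, and adjusted p values of 0.269 and 0.0943. CD14, a monocyte marker, stood at 3.05 ± 0.511 FPKM in boiled medium and 1.75 ± 0.268 FPKM in the large fraction (adjusted p = 0.012, lost without some single libraries), and its part in these results was not tested.

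Amino acid transport and the ATF4 response were partly lower. Of 31 tested members, 12 were lower and 2 higher, beside 7.09% and 4.46% over all genes, with a median of -0.11. SLC7A5, the light chain of the large neutral amino acid exchanger, had 16.5, 16.5 and 17.0 FPKM in boiled medium and 34.6, 34.6 and 34.2 FPKM in the large fraction (-1.05 ± 0.05, adjusted p = 9.74e-20). The arginine transporter SLC7A1 had 27.1, 27.5 and 25.6 FPKM and 33.4, 35.6 and 35.3 FPKM (-0.38 ± 0.04). The larger changes also took in DDIT4 and 2 genes that the hypoxia list shares, STC2 and VEGFA. The factor ATF4 itself was lower, at 83.6 ± 1.34 FPKM against 98.4 ± 0.655 FPKM. Both SESN2 and NUPR1, the 2 higher members, lost their call under at least 1 alternative. The stress regulators DDIT3, TRIB3 and ATF3 had log2 fold changes of -0.01, -0.08 and 0.05 and did not pass.

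Proteases and their inhibitors split by gene. Of 11 tested members, 4 were lower and 2 were higher, beside 7.09% and 4.46% over all genes. MMP1, the interstitial collagenase, had 7.68, 9.22 and 7.95 FPKM in boiled medium and 24, 21.9 and 24.3 FPKM in the large fraction (-1.50 ± 0.10, adjusted p = 3.35e-16). PLAU, the urokinase that activates plasminogen, went the other way, with 62.5, 62.9 and 62.9 FPKM and 37.6, 36.6 and 35.6 FPKM (0.78 ± 0.05, adjusted p = 6.22e-15). Both genes separated the media without overlap. TIMP1, an inhibitor of metalloproteases, was higher, at 114 ± 1.89 FPKM in boiled medium and 88.9 ± 1.39 FPKM in the large fraction.

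Keratins and matrix genes also differed. Of 12 tested keratins 6 were lower, against 7.09% of all genes, and none was higher, with a median of -0.47. KRT7, a simple-epithelium keratin and carcinoma marker, had 62.1, 63.4 and 70.5 FPKM in boiled medium and 111, 109.7 and 112 FPKM in the large fraction (-0.76 ± 0.04), and KRT18 had 101, 99.3 and 106 FPKM and 139, 139 and 139.8 FPKM (-0.45 ± 0.04). The boiled libraries were the lower ones. Among 29 tested collagen, laminin and integrin genes 7 were higher and 5 lower, beside 4.46% and 7.09% over all genes. COL12A1, a fibril-associated collagen, had 7.31, 7.08 and 7.62 FPKM and 13.4, 15.3 and 13.9 FPKM (-0.96 ± 0.05, adjusted p = 3.35e-19), whereas SPARC, a matrix-binding glycoprotein, stood at 150.2 ± 3.61 FPKM and 115 ± 1.30 FPKM (0.38 ± 0.04) and COL1A1 at 210.2 ± 1.52 FPKM and 172 ± 5.84 FPKM (0.29 ± 0.04). FGFBP1, which carries fibroblast growth factors out of the matrix, was the largest fall among protein-coding genes with at least 1 FPKM in either group, with 1.81, 1.98 and 1.31 FPKM and 6.63, 7.10 and 6.28 FPKM (-1.99 ± 0.23, adjusted p = 7.62e-09).

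Genes of bone morphogenetic proteins and transforming growth factor beta signalling had more higher than lower calls. Of 16 tested, 7 were higher and 3 lower, beside 4.46% and 7.09% over all genes, with a median of 0.22. SMAD6, an inhibitory SMAD of the bone morphogenetic protein branch, had 1.25, 1.36 and 1.44 FPKM in boiled medium and 0.756, 0.740 and 0.700 FPKM in the large fraction (0.88 ± 0.12, adjusted p = 5.84e-07). ID3, a target of the same branch, had 13.2, 13.1 and 15.8 FPKM and 9.91, 9.68 and 10.4 FPKM (0.49 ± 0.09), and the ligand BMP4, outside the list, had 0.964, 0.953 and 1.13 FPKM and 0.487, 0.421 and 0.578 FPKM (1.04 ± 0.27). All were higher in boiled medium, without overlap. The ligand TGFB1 was lower, at 88.5 ± 2.35 FPKM against 111 ± 2.53 FPKM.

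Immediate early genes of growth factor signalling had 9 lower and 3 higher calls of 35, beside 7.09% lower and 4.46% higher over all genes, while 23 did not pass and the median was -0.06. FOSL2, an AP-1 subunit, stood at 23.4 ± 0.826 FPKM in boiled medium and 31.0 ± 0.359 FPKM in the large fraction (-0.41 ± 0.05), and MYC, a growth regulator outside the list, at 31.4 ± 1.18 FPKM and 39.5 ± 1.52 FPKM (-0.34 ± 0.05). KLF4 was higher, with 5.34, 5.22 and 5.53 FPKM and 3.75, 3.01 and 2.67 FPKM (0.77 ± 0.11, adjusted p = 5.32e-07).

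Some lists of protein synthesis, folding and respiration had higher calls of small size, and others had few calls. Over all genes 4.46% were higher and 7.09% lower, and each count in this paragraph stands beside these shares. Of 42 ribosomal protein genes 13 were higher, none lower and 29 did not pass, with a median of 0.097. Under the alternatives described below that median ran from 0.0699 to 0.121. RPL7 and RPL24 lost their calls with GC and length offsets, and RPL24 and RPS14 without boiled replicate 3. Ribosome biogenesis had 1 higher and 2 lower calls of 24 (median -0.01), near the shares over all genes. The tRNA synthetases had none higher and 2 lower of 18 (median -0.03). Of 36 nuclear genes of the respiratory chain 3 were higher and none lower, with a median of 0.05. The calls of COX6C, NDUFA4 and UQCRB, subunits of that chain, were each lost under at least 1 alternative. So were those of the mitochondrially encoded MT-CYB and MT-ND6, and of the endoplasmic reticulum stress genes XBP1, DNAJC3 and HERPUD1. Of 19 endoplasmic reticulum chaperone genes 7 were higher and none lower, with a median of 0.15, and HSPA5, the main chaperone of that compartment, stood at 201 ± 2.32 FPKM in boiled medium and 164 ± 1.46 FPKM in the large fraction (0.29 ± 0.03). Of 13 mitochondrially encoded genes 6 were higher and none lower, led by the complex I subunit MT-ND1 with 2716, 2676 and 2701 FPKM and 1939, 2036 and 1897 FPKM (0.46 ± 0.04, adjusted p = 7.02e-13). Mitochondrial genes took 5.84% to 5.95% of all counts in boiled medium and 5.02% to 5.40% in the large fraction, and the part of this shift in the result was not tested.

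Several further genes with large changes are given singly. SIGLEC15, a lectin that binds sialic acid, had 2.44, 3.67 and 3.24 FPKM in boiled medium and 1.12, 0.649 and 1.02 FPKM in the large fraction (1.74 ± 0.20, adjusted p = 5.23e-09). TIE1, a receptor tyrosine kinase best known from endothelium, had 2.03, 2.07 and 2.07 FPKM and 0.828, 0.845 and 0.766 FPKM (1.34 ± 0.14). FOLR1, the folate receptor of ovarian carcinoma and a member of the carcinoma markers above, had 16.7, 16.9 and 18.7 FPKM and 9.30, 11.7 and 9.99 FPKM (0.75 ± 0.10). The boiled libraries were higher in each. The endothelial markers PECAM1, VWF, CDH5, KDR and TEK together summed to 0.840 to 1.28 FPKM in boiled medium and 0.781 to 0.884 FPKM in the large fraction, and none of the 3 tested passed. GFRA1, a co-receptor for glial-derived neurotrophic factor, was lower, with 0.484, 0.430 and 0.449 FPKM and 1.02, 1.16 and 1.18 FPKM (-1.30 ± 0.16), and the organic anion transporter SLCO4A1 had 1.49, 1.42 and 1.46 FPKM and 3.58, 3.29 and 3.00 FPKM (-1.18 ± 0.13).

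The other media show where each program stood, with values from the same fit that share libraries with the main comparison. Boiled medium differed from intact senescent medium in 25.9% of genes (11.2% higher, 14.7% lower), and the large fraction differed from it in 18.1% (8.14% higher, 10% lower). Against intact medium, boiled medium had 17 lower and 1 higher calls of 24 hypoxia genes, 31 lower of 32 mitotic genes, 20 lower of 23 sterol genes and 15 higher of 26 interferon genes. The large fraction against intact medium had 12 higher and 1 lower hypoxia genes, 1 higher and 6 lower mitotic genes, 5 higher and 3 lower sterol genes, and 3 higher and 7 lower interferon genes. Ribosomal protein genes were lower than in intact medium in both, with 36 of 42 in boiled medium and 40 of 42 in the large fraction. NDRG1 differed from intact medium by -1.11 ± 0.04 in boiled medium (adjusted p = 8.46e-27) and by 0.10 ± 0.04 in the large fraction (adjusted p = 0.0372). SCD differed by -1.11 ± 0.04 and 0.01 ± 0.04 in the same order, the second with an adjusted p of 0.874. MMP1 and IFIT2 had the same form, with -1.39 ± 0.10 and 1.27 ± 0.09 in boiled medium, and 0.12 ± 0.09 and -0.04 ± 0.09 in the large fraction with adjusted p values of 0.401 and 0.844. For these 4 genes the large fraction stood close to intact medium and boiled medium stood apart.

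For SLC7A5 and FGFBP1 intact medium lay between the pair, nearer to boiled medium. SLC7A5 was 20.4 ± 0.946 FPKM in intact medium, and differed from it by 0.75 ± 0.05 in the large fraction (adjusted p = 6.74e-15) and by -0.30 ± 0.05 in boiled medium (adjusted p = 2.91e-05). FGFBP1 differed from intact medium by 1.35 ± 0.22 in the large fraction (adjusted p = 1.42e-05) and by -0.64 ± 0.25 in boiled medium (adjusted p = 0.0527). The metallothionein MT1E, a zinc buffer with close copies that may share its reads, was 107 ± 15.6 FPKM in boiled medium, 161 ± 10.2 FPKM in the large fraction and 59.7 ± 8.72 FPKM in intact medium. Both preparations were above intact medium for MT1E, by 0.84 ± 0.11 and 1.43 ± 0.11, and the large fraction was the higher of them (-0.58 ± 0.11, adjusted p = 0.00116).

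Against the small fraction, boiled medium differed in 29% of genes (15.7% higher, 13.3% lower), and the lists differed in direction. For hypoxia targets 23 of 24 genes were higher in boiled medium than in the small fraction and none lower, and for glycolysis 18 of 19 were higher and 1 lower. NDRG1 was 10.6 ± 0.115 FPKM in the small fraction, 59.1 ± 1.00 FPKM in boiled medium and 137 ± 2.12 FPKM in the large fraction. Mitotic genes were higher in boiled medium than in the small fraction in 29 of 32 cases, and CDC20 was 43.5 ± 3.22 FPKM in the small fraction. For NDRG1 and CDC20, then, boiled medium lay between the fractions.

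For lipid synthesis and NF-kB targets, boiled medium was below the small fraction more often than above it. For sterol genes 1 was higher and 10 were lower in boiled medium than in the small fraction, for fatty acid genes 0 and 10, and for inflammatory genes 1 and 9. INSIG1 was 6.17 ± 0.703 FPKM in the small fraction and 11.4 ± 0.443 FPKM in fresh medium, both above the 4.09 ± 0.231 FPKM of boiled medium (differences -0.59 ± 0.09 and -1.48 ± 0.08, with adjusted p values of 8.97e-07 and 2.73e-18). In proliferative medium it was 4.78 ± 0.146 FPKM, and that difference did not pass (-0.22 ± 0.09, adjusted p = 0.0786). SCD was lower in boiled medium than in the small fraction (-0.41 ± 0.04), fresh medium (-0.75 ± 0.04) and proliferative medium (-0.62 ± 0.04), with adjusted p values of 3.05e-12, 1.17e-20 and 2.07e-17. Interferon genes were mixed, with 6 higher and 8 lower in boiled medium than in the small fraction, and among the 6 direct media the mean of IFIT2 was highest in proliferative medium, at 13.4 ± 0.332 FPKM.

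PLAU and SIGLEC15 were highest in boiled medium among the 6 direct media. PLAU was 40.6 ± 2.37 FPKM in intact medium, 40.8 ± 4.0 FPKM in the small fraction, 43.4 ± 1.96 FPKM in fresh medium and 44.7 ± 0.429 FPKM in proliferative medium. Boiled medium exceeded these by 0.62 ± 0.05, 0.62 ± 0.05, 0.53 ± 0.05 and 0.49 ± 0.05, with adjusted p values of 2.38e-12, 2.21e-12, 1.24e-10 and 2.71e-09. SIGLEC15 exceeded the same 4 media by 1.77 ± 0.20, 1.28 ± 0.19, 2.09 ± 0.21 and 1.19 ± 0.19, with a largest adjusted p of 9.74e-06. These comparisons share the 3 boiled libraries, and PLAU and SIGLEC15 were singled out for this after their values were seen. The calls against fresh and proliferative medium covered 27.9% and 19.9% of all genes.

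**Figure D5:**
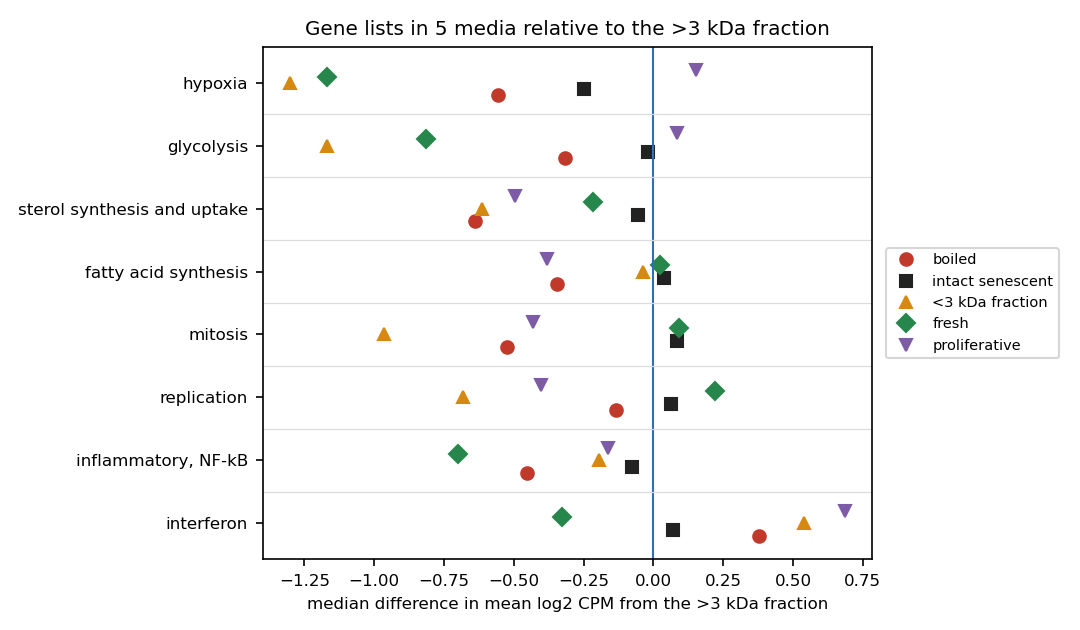
Median over the members of 8 gene lists of the difference in mean log2 CPM from the fraction above 3 kDa (x axis), for 5 other media (symbols, 3 libraries each). The blue line at 0 is the fraction above 3 kDa. Boiled medium lies between that line and the fraction below 3 kDa for hypoxia, glycolysis, mitosis, replication and interferon genes. It lies beyond the fraction below 3 kDa for fatty acid and inflammatory genes, and narrowly so for sterol genes (-0.639 against -0.612).

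Over all called genes, intact senescent medium lay nearer the large fraction more often than boiled medium. Its mean log2 CPM was closer to the large fraction for 563 of the 856 genes higher in boiled medium (65.8%) and for 1027 of the 1362 lower ones (75.4%). The small fraction lay closer to boiled medium for 559 (65.3%) and 1045 (76.7%). Fresh medium was closer to boiled medium for 42.2% and 48.8%, and proliferative medium for 51.1% and 51.3%. These shares are descriptions without a test, since the genes were called on the 2 groups the distances are measured to.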

How the data were processed

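The authors sequenced polyA RNA from OVCAR8 cells in 24 libraries. The submitters' processing notes list STAR 2.6.1, DESeq2 (version given as 2) and GRCh38, without roles. No source used here names the read counter or the strand, so overlapping and antisense genes cannot be separated. The authors deposited whole-number read counts and FPKM for 58735 genes, and their FPKM are counts divided by gene length and an effective library size. Groups follow the labels.

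The count model was edgeR 4.0.16 (R 4.3.3): robust quasi-likelihood with TMM factors, a mean for each of the 8 groups, and 16 residual degrees of freedom. After filterByExpr 19210 genes remained, with a common biological coefficient of variation of 0.0638. All p values are two-sided, with Benjamini-Hochberg adjustment and a threshold of 0.05. The approximate SE is the size of the log2 fold change over the root of F. Log2 CPM used a prior count of 2. In simulated counts with known changes in well-counted genes, it recovered 53.73% of 1.25-fold, 79.1% of 1.5-fold and 95.45% of 2-fold changes. Of its 161 calls there, 9 were false. A gene that did not pass may therefore still have changed, at times by 1.5-fold or more. The simulation changed 67, 67 and 66 genes at those folds, far fewer than were called in the data. Its rates may therefore not carry over. No pair of replicate libraries was a copy, since each differed beyond counting noise.

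The comparison, gene lists and named genes were chosen with earlier results of these data known. Named genes are the 15 largest rises and falls among protein-coding genes past the threshold with at least 1 FPKM in either group, the 3 largest each way among other gene types, the 10 smallest p values and up to 6 called members per list with the largest changes. Among these, the text mainly gives genes whose call held under the alternatives, a preference set after the values were seen. Further list members were singled out after their values were seen, and the comparisons of boiled with fresh and proliferative medium were added then. Alternatives used DESeq2 1.42.0, limma 3.58.1 on log2 FPKM, other scalings and filters, GC and length offsets, a replicate block and single libraries left out. Results for some genes are not reported here. GENCODE gave gene types, and RefSeq the promoters.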

Additional observations from a re-analysis of the deposited data

How the results depend on the processing

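Of 198 named genes under up to 17 alternatives each, which gave 3337 values in all, 137 kept their direction and call in each alternative that gave them a value, 61 lost the call in at least 1, and none changed direction. The higher and lower calls were 878 and 1333 with DESeq2 size factors in edgeR, 920 and 1395 with DESeq2's own test, 1090 and 1627 from the 6 libraries alone, 829 and 1241 without the filter, 901 and 1298 among genes of at least 1 FPKM, 743 and 1160 with limma on log2(FPKM + 1), 729 and 1140 with limma on log2(FPKM + 0.1), and 1149 and 1553 with GC and length offsets. Library totals gave 1109 and 1152. Leaving out 1 library gave 541 to 610 higher and 1040 to 1120 lower calls, and the cause of the drop to 541 without large-fraction replicate 2 was not tested, beside the loss of a sample.

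With the replicate number as a block the calls were 838 higher and 1331 lower, and 1158 and 1556 with the block and the offsets. Same-numbered libraries of the 2 media deviated together with correlations of 0.035, -0.029 and 0.122 over 10861 genes, so the numbers were not taken to pair the samples. The calls of CA9, ALDOA, KLF2 and NR4A1 were among those lost under at least 1 alternative, and the cause was not tested. Genes under 1 FPKM such as OAS2 carry wide errors (2.57 ± 0.47).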

Other observations

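Most gene groups not described above had few calls or calls in both directions. Purine and pyrimidine synthesis had 4 lower and no higher calls of 18, with a median log2 fold change of -0.06. The metallothionein list had 2 lower and no higher calls of 7 tested, with a median of -0.47. The counts in this section stand beside 4.46% higher and 7.09% lower calls over all genes. Cytosolic heat shock genes had 3 higher and no lower calls of 19, with a median log2 fold change of -0.00106, and HSPA8, the constitutive chaperone, stood at 189 ± 1.98 FPKM in boiled medium and 154 ± 2.31 FPKM in the large fraction (0.29 ± 0.03). The inducible HSPA1A, whose reads may be shared with its near-identical copy HSPA1B, had 31.9 ± 2.57 FPKM and 28.9 ± 2.57 FPKM (adjusted p = 0.433). Of 23 targets of the antioxidant factor NRF2, 4 were higher and 7 lower. Among them the aldo-keto reductases AKR1C3 and AKR1C1 were higher (0.51 ± 0.09 and 0.64 ± 0.15), and the glutathione synthesis subunit GCLM was lower (-0.35 ± 0.06). The AKR1C genes are close copies, and reads may be shared between them.

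The ferritin heavy chain FTH1 had 1027, 1053 and 1050.3 FPKM in boiled medium and 1437, 1370.3 and 1373 FPKM in the large fraction (-0.42 ± 0.04, adjusted p = 1.42e-08), and fresh medium gave 602 ± 16.3 FPKM. Polyamine genes had 5 lower and 1 higher calls of 13: ODC1, which makes putrescine, was lower (-0.42 ± 0.07) and SAT1, which acetylates polyamines for export, was higher (0.25 ± 0.04). Of 11 tested multidrug and organic anion transporters 1 was higher, 3 were lower and 7 did not pass, with a median of -0.12. Among them ABCC3 had 2.00, 2.04 and 2.02 FPKM and 1.20, 1.30 and 1.31 FPKM (0.67 ± 0.11), with 0.503 ± 0.0408 FPKM in intact medium. Of 23 p53 targets 3 were higher and 2 lower, beside 4.46% and 7.09% over all genes. NOTCH1 was lower (-0.50 ± 0.06) while HES1, a target of Notch receptors, was higher (0.46 ± 0.08). A pair of non-coding genes without a known role here, AC107021.1 and AL162274.1, had 0.212, 0.606 and 0.681 FPKM and 0.312, 0.446 and 0.375 FPKM in boiled medium, and 1.67, 1.35 and 2.41 FPKM and 0.990, 2.03 and 0.934 FPKM in the large fraction.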
